A study of Mus musculus with 32 samples.

Results

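The receptors of the signalling lymphocytic activation molecule (SLAM) family were followed in bone marrow-derived macrophages (BMDMs) after induced loss of Trex1, the gene of a DNA exonuclease of the cytosol. The family was taken as 9 mouse genes, Slamf1, Slamf6, Slamf7, Slamf8, Slamf9, Cd48, Cd84, Cd244a and Ly9, found in the deposited table by their Ensembl identifiers among 54281 genes. The family was chosen by values of these same libraries, because Slamf9 and Slamf7 were among the genes with large increases after Trex1 loss, so their levels in 4-OHT-treated Trex1 FL/FL cells are given as a description and without a test. BMDMs carried the R26 CreERT2 transgene, a Cre recombinase expressed from the broadly active Rosa26 locus that works once 4-hydroxytamoxifen (4-OHT) binds to it. The genotypes were Trex1 FL/FL, in which both alleles can be deleted, and Trex1 WT/FL, which keeps a wild type allele and served as the control. The series' own description gives the transgene for the FL/FL mice, and the study's methods also give it for the WT/FL controls. Cells of each genotype received 2 µg/ml 4-OHT for 22 h or stayed untreated, and RNA was harvested 1, 2, 3 and 4 days after the exposure ended. The 16 groups have 2 libraries each (n = 2 throughout, 32 libraries), and the labels name no animal, culture or batch, so that p-values measure only the spread between these libraries, which may be technical. The age of the mice is not given in the sources used here. In these bulk libraries fewer cells of a type and less RNA per cell cannot be told apart.

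SLAM receptors are immunoglobulin-like surface proteins related to CD2. Most of them bind to a copy of themselves on a neighbouring cell, whereas CD244 binds CD48, which lacks a cytoplasmic tail and is held by a lipid anchor. Tyrosine motifs in the tails of the others recruit the small adaptors of the SAP family, kinases of the Src family or phosphatases, while the tails of SLAMF8 and SLAMF9 are short and lack these motifs. In macrophages SLAMF7 is known to promote phagocytosis of blood-derived tumour cells, SLAMF8 to restrain the NADPH oxidase, and SLAMF1 to bind bacteria and the Vps34 lipid kinase complex.

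All 9 genes lie on chromosome 1 of GRCm39, between 171386708 and 172418178. Cd244a, Ly9, Slamf7, Cd48, Slamf1, Cd84 and Slamf6 form a block in this order, and Slamf9 (172297192 to 172307889, plus strand, 4 exons in the canonical transcript) and Slamf8 (172409325 to 172418178, minus strand, 5 exons) lie apart from it. Slamf7 spans 171459966 to 171480603 on the minus strand with 6 exons. The 250 bases before the canonical start sites of Slamf9 and Slamf7, the members with the largest genotype difference on day 4, are printed with those of Slamf8, the neighbour of Slamf9 in the family, which differed little on days 3 and 4. They were read from GRCm39 with GENCODE vM39 start sites, from 172302594 to 172302843 for Slamf9, from 171476581 to 171476830 for Slamf7 and from 172418136 to 172418385 for Slamf8, each 5′ to 3′ on the strand of the gene. Capitals mark a match to the core of the interferon-stimulated response element (ISRE).
Slamf9: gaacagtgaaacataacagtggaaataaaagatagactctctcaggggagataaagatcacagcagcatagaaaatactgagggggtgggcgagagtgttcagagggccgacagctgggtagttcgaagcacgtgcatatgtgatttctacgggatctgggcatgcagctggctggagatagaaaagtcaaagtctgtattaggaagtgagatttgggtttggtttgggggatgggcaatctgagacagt
Slamf7: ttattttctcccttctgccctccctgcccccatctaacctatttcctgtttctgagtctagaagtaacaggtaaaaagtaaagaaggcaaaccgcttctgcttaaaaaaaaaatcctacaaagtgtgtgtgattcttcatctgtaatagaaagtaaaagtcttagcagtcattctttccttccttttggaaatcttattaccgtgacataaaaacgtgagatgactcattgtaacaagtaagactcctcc
Slamf8: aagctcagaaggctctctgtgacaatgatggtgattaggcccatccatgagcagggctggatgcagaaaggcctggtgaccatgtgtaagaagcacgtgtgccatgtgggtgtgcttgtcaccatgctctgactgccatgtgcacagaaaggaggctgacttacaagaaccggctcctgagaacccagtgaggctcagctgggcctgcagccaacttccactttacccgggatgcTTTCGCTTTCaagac
Windows from 250 bases before to 50 bases after the start sites of all 9 members were searched on both strands for the ISRE core GAAANNGAAA, for the interferon gamma-activated site (GAS) TTCNNNGAA, for the NF-κB motif GGGANTTTCC and for the PU.1 motif GAGGAAG. The same windows of 15156 tested genes held them in 3.89%, 7.81%, 0.501% and 13.7%. Slamf8 was the member with an ISRE core match, TTTCGCTTTC on the other strand with its first base 15 bases before the start site (position -15), and it held the NF-κB match GGGACTTTCC at position 37 after the start. Cd84 held a PU.1 match at position 4, on the other strand. The windows of Slamf9, Slamf7 and the other 5 members held none of the 4 letter patterns, which says only that these letters are not in those windows, and a match is not evidence of binding. The annotated spans of Slamf9 and Slamf7 begin further upstream, at 172297192 and 171480603, and only canonical start sites were searched.

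Trex1 was checked first. The 4-OHT-treated FL/FL libraries held 14 and 9 Trex1 counts on day 2 and 0 counts on the other days, against 758 to 3622 counts in the WT/FL libraries given 4-OHT. The 4-OHT-treated WT/FL cells, in which 1 allele can be deleted, had a Trex1 level of 48.4 ± 0.871 CPM (counts scaled to library size, mean ± SD, n = 2) on day 4, and untreated WT/FL cells one of 84.3 ± 8.01 CPM. Library totals ranged from 35120505 to 63760884 counts. The 6 macrophage markers were all detected, with a summed level of 3800 to 13906 CPM over the 32 libraries. Genes that define T cells (Cd3e, Cd3d, Cd3g), NK cells (Klre1) and B cells (Cd79a, Pax5) had at most 3 counts in any library, and Cd8a, Ncr1 and Eomes had 0. Of the longer lists, 2 of 6 T cell, 1 of 5 NK cell and 1 of 5 B cell markers passed the filter on low counts, led by Cd4, Klrk1 and Cd79b. Cd4 reached 52.9 CPM (2368 counts) and Cd5, the other tested T cell marker, 8.46 CPM (461 counts). The T cell list summed to 3.44 to 53.2 CPM over the libraries, and on day 4 to 32.4 and 34.9 CPM in 4-OHT-treated FL/FL against 30.1 and 43.5 CPM in WT/FL libraries. The NK cell list summed to at most 0.747 CPM, with up to 32 counts of Klrk1 and 6 of Klrb1c in a library. In 4-OHT-treated FL/FL against WT/FL libraries its sum overlapped on day 1. It was 0.361 and 0.569 against 0.073 and 0.174 CPM on day 2. On day 3 it was 0.322 and 0.598 against 0.156 and 0.247 CPM, and on day 4 0.393 and 0.747 against 0 and 0.259 CPM. The B cell list summed to 1.31 to 6.58 CPM. The part of these cells in the receptor values was not tested. Neutrophil, dendritic cell and mast cell markers summed to at most 13.8, 2.67 and 1.4 CPM.

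The receptors differed widely in level. Per length, in RPKM (CPM divided by the exon length in kilobases), untreated WT/FL cells on day 1 had most of Cd48 (50.5 ± 2.75, SD), followed by Ly9 (33.8 ± 0.744), Cd84 (25.5 ± 1.36) and Slamf9 (17.2 ± 1.2). Cd244a, Slamf7 and Slamf8 stood at 2.37 ± 0.0744, 1.2 ± 0.116 and 0.402 ± 0.0846 RPKM, and Slamf6 and Slamf1 were close to the limit of detection. On day 4 the order in these cells was Ly9 (143.5 ± 2.14), Cd48 (97.9 ± 12.5), Cd84 (49.2 ± 0.343), Slamf7 (18.4 ± 1.69), Slamf8 (4.36 ± 0.351), Slamf9 (2 ± 0.201) and Cd244a (0.182 ± 0.0178). The values of neighbours in this order did not overlap between the libraries on either day. All 9 members passed the filter on low counts, Slamf6 with 7 to 81 and Slamf1 with 0 to 12 counts per library. Cd84 shares 9.49% of the 31-base words of its transcripts with other genes, and Slamf1 shares 2.94%, so reads there could be split between genes. The other members share at most 0.55%. For Cd84 the single transcript that shares the most words is one of Tubgcp2. Cd244a and Ly9 are annotated on opposite strands of overlapping stretches, and whether the reads kept their strand is not given in the sources used here.

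**Figure D1:**
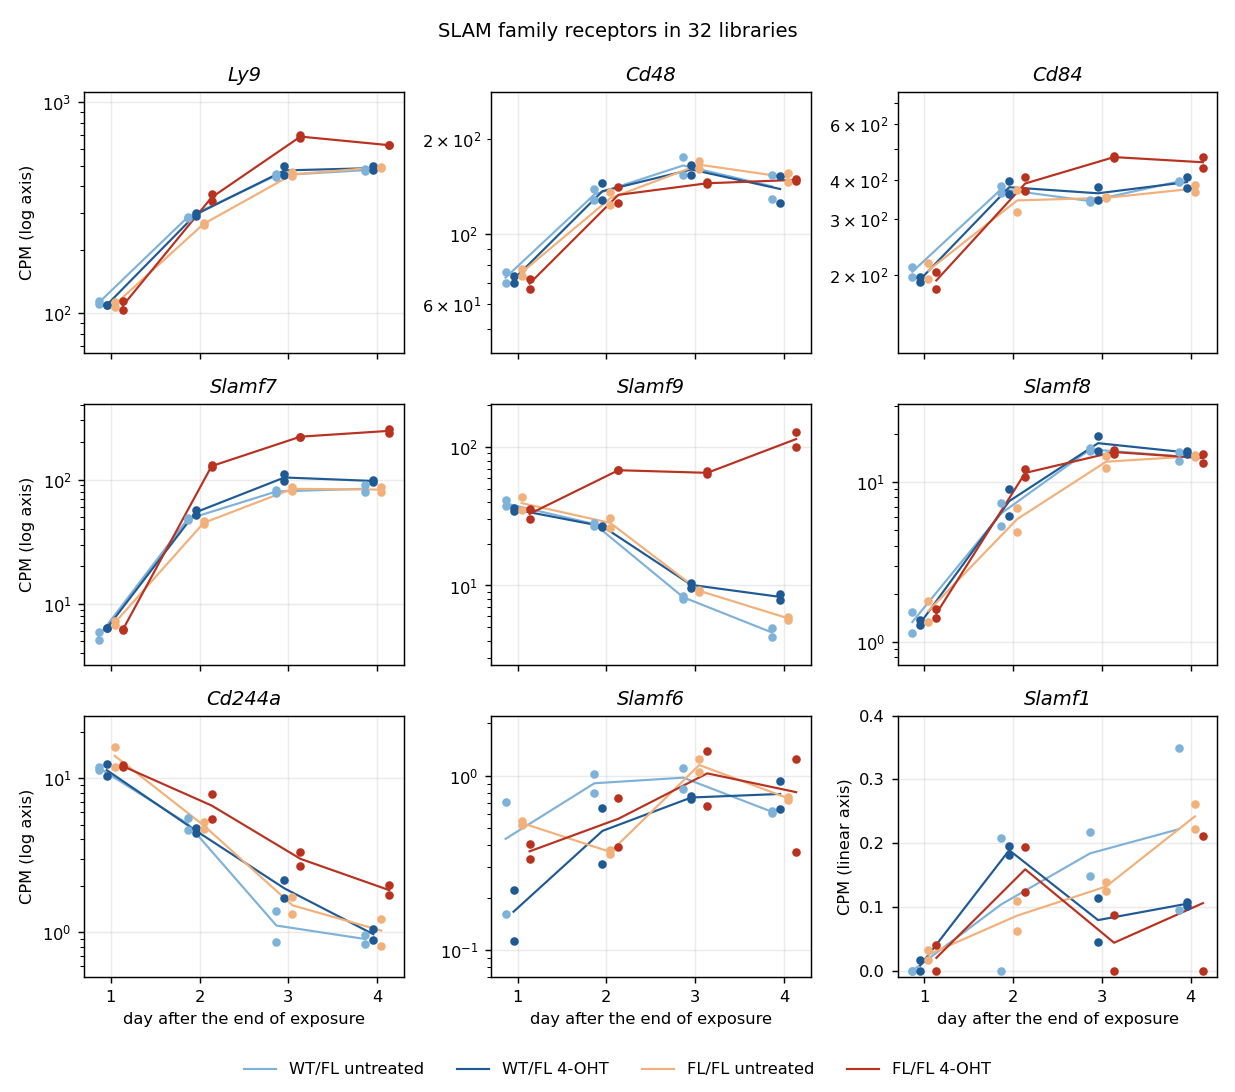
CPM of the 9 SLAM family receptors (y axis, logarithmic except for Slamf1) against the day after the end of exposure (x axis). Points are libraries and lines join the means of 2 libraries. In 4-OHT-treated FL/FL cells Slamf9 lay at 128.6 and 100.3 CPM on day 4 and at or below 8.71 CPM in all other libraries of that day, while Slamf7 lay at 238.4 and 254.3 CPM and at or below 99.6 CPM elsewhere.

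The first comparison asked how the receptors change with time in culture when Trex1 is not deleted. It uses only untreated cells, which did not enter the choice of the family, with the mean of both genotypes on each day. Slamf7, Slamf8, Ly9, Cd48 and Cd84 rose from day 1 to day 2, and Slamf9 and Cd244a fell. A gene passed at an adjusted p below 0.01 (edgeR quasi-likelihood test, Benjamini-Hochberg adjustment over 15257 genes), and 5 of 9 members passed upwards and 2 downwards. Of all tested genes, 25.6% passed upwards and 24.0% downwards on this step.

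Slamf7, an activating receptor of NK cells and macrophages, had the largest log2 fold change among the members that passed. Its levels were 5.89 and 5.13 CPM in untreated WT/FL and 6.76 and 7.34 CPM in untreated FL/FL libraries on day 1. On day 2 they were 47.1, 48.8, 46.2 and 43.5 CPM in the same order. The days were far apart, with a log2 fold change of 2.89 ± 0.0602 (SE, adjusted p = 1.87e-23). Slamf8 rose by 2.08 ± 0.147 (adjusted p = 2.32e-12), from 1.14 to 1.79 CPM in the 4 day 1 libraries to 4.88 to 7.38 CPM on day 2. Ly9, a homophilic receptor also known as CD229, rose by 1.31 ± 0.0395 (adjusted p = 2.63e-20). Cd48 and Cd84 rose by 0.83 ± 0.0652 and 0.80 ± 0.054 (adjusted p = 6.28e-11 and 4.57e-13). Slamf1, with 0 to 2 counts in the untreated day 1 libraries, had a fitted log2 fold change of 3.52 ± 1.35 and did not pass (adjusted p = 0.0284). Slamf9 fell by 0.49 on the log2 scale (SE 0.0758, adjusted p = 3.78e-06) and Cd244a, the receptor for CD48, fell by 1.35 (SE 0.142, adjusted p = 4e-09).

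From day 2 to day 3 the same genes except Cd84 passed again in the same directions, 4 members upwards and 2 downwards. The shares of all tested genes were 24.8% upwards and 23.4% downwards. Slamf9 dropped from 26.0 to 30.6 CPM in the 4 untreated day 2 libraries to 8.03, 8.4, 8.96 and 9.35 CPM on day 3, a log2 fold change of -1.69 ± 0.0834 (adjusted p = 1.27e-15). Cd244a changed by -1.96 ± 0.163 (adjusted p = 4.31e-11), to between 40 and 67 counts per library. Slamf8 rose by 1.26 ± 0.126 (adjusted p = 2.24e-09), Slamf7 by 0.83 ± 0.0511 (adjusted p = 8.88e-14), Ly9 by 0.72 ± 0.0388 (adjusted p = 4.41e-15) and Cd48 by 0.33 ± 0.0644 (adjusted p = 0.000113). Cd84 had a log2 fold change of -0.05 ± 0.0535 on this step (adjusted p = 0.458).

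From day 3 to day 4 Slamf9 alone passed among the 9 members with edgeR, downwards, while 10.7% of all tested genes passed upwards and 11.8% downwards. Its levels on day 4 were 4.24, 4.89, 5.64 and 5.95 CPM, all below those of day 3, and the log2 fold change was -0.76 ± 0.0935 (adjusted p = 4.56e-07). No member passed upwards in edgeR, and 5 members had an unadjusted p below 0.05 in either direction (Slamf9, Cd84, Cd48, Ly9 and Cd244a). DESeq2 passed 3 members on this step, Slamf9 and, upwards, Cd84 and Ly9. Without replicate 2 of the untreated WT/FL libraries of day 4 edgeR passed 2 members, with Cd48 (-0.24, adjusted p = 0.00649) added. Over the 3 days the log2 fold change in untreated cells was 3.75 for Slamf7, 3.33 for Slamf8, 2.12 for Ly9, -2.94 for Slamf9 and -3.76 for Cd244a. Slamf1 had 0 to 2 counts in the untreated day 1 libraries and 5 to 12 on day 4, which is at least 3.79-fold higher when the day 1 libraries are set to a floor of 3 counts each. Slamf6 did not pass on any of the 3 steps (log2 fold changes 0.25, 0.88 and -0.64 with SE of 0.391 to 0.407).

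**Figure D2:**
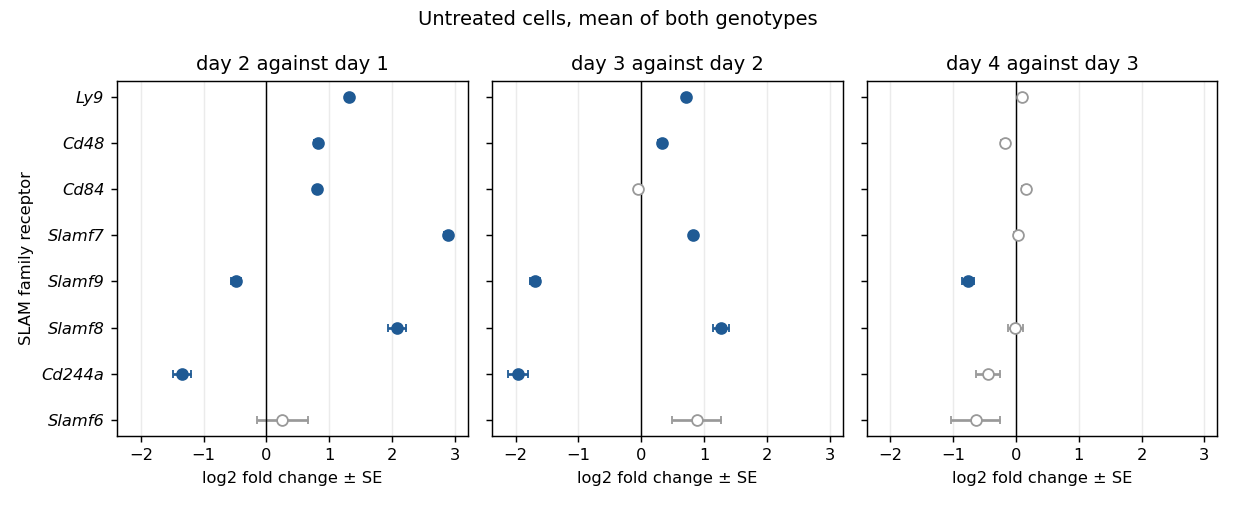
Log2 fold change ± SE (x axis) of each day step in untreated cells for 8 receptors (y axis), as the mean of both genotypes. Filled points passed at an adjusted p below 0.01. On the step from day 1 to day 2 Slamf7 lies at 2.89 and Cd244a at -1.35, and on the step from day 3 to day 4 the one filled point is Slamf9 at -0.76.

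The second comparison asked whether the genotypes differ before Cre is activated. As the mean of 4 days, 0 of 9 members passed between untreated FL/FL and WT/FL cells (edgeR), 1 had an unadjusted p below 0.05 (Slamf9, 0.0336) and DESeq2 also passed 0. The share of all tested genes that passed was 0.0197%. The log2 fold changes were 0.14 ± 0.0602 for Slamf9, 0.08 ± 0.0392 for Slamf7, -0.02 ± 0.0274 for Ly9 and 0.20 ± 0.117 for Cd244a. A test of whether a day step differed between the untreated genotypes passed for 0 of 9 members on each of the 3 steps (edgeR), with 1, 0 and 0 members at an unadjusted p below 0.05. The 1 member was Slamf7 on the step to day 2 (log2 difference -0.45), and DESeq2 was not run on this test. The share of all tested genes was not taken for it, so nothing is read from these counts.

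The third comparison asked whether 4-OHT or the deletion of 1 allele changes the receptors in WT/FL cells. Because Slamf7 and Slamf9 were chosen by a contrast with the 4-OHT-treated WT/FL libraries, the test was read for the other 7 members, of which 0 passed in edgeR, 0 in DESeq2 and 0 at an unadjusted p below 0.05 as the mean of 4 days, against 0.557% of all tested genes. By single days the share of all tested genes was not taken, so nothing is read from the counts of members. On these days 0 of 7 passed with edgeR. An unadjusted p below 0.05 was found for 1 member on day 1 (Slamf6, log2 -1.37, adjusted p = 1.0) and 1 on day 3. The latter was Cd244a, with 114 and 75 counts in 4-OHT-treated and 40 and 56 in untreated WT/FL libraries (log2 0.81, 1.76-fold, edgeR adjusted p = 0.178). Ly9, Cd48 and Cd84 had log2 fold changes of 0.03 ± 0.0274, -0.01 ± 0.0456 and 0.00 ± 0.0379 as the mean of 4 days. Slamf9 is described only. On day 4 it had 7.83 and 8.71 CPM in 4-OHT-treated WT/FL libraries, above the 4.24 and 4.89 CPM of untreated WT/FL and the 5.64 and 5.95 CPM of untreated FL/FL libraries, and the log2 fold change within WT/FL was 0.86. On days 1, 2 and 3 this log2 fold change of Slamf9 was -0.14, -0.05 and 0.29. The Trex1 level in 4-OHT-treated WT/FL cells was lower than in untreated ones on each day. Its levels on days 1 to 4 were 13.6, 57.2, 74.2 and 48.4 CPM against 30.3, 119.0, 135.1 and 84.3 CPM. The part of Trex1 in the Slamf9 values was not tested. Slamf7 had a log2 fold change of 0.24 between treatments in WT/FL cells.

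After Cre was activated, the levels of Slamf9 and Slamf7 in FL/FL cells left those of the controls between day 1 and day 2. On day 1 the values of Slamf9 overlapped, at 30.2 and 35.6 CPM in 4-OHT-treated FL/FL and 34.6 and 36.6 CPM in 4-OHT-treated WT/FL libraries. On day 2 they were 67.9 and 68.3 CPM against 26.6 and 27.0 CPM, a 2.54-fold difference (log2 1.35). On day 3 they were 66.9 and 63.5 CPM against 9.63 and 10.5 CPM, a 6.49-fold difference (log2 2.70). On day 4 they were 128.6 and 100.3 CPM against 7.83 and 8.71 CPM, a 13.9-fold difference (log2 3.79). Both FL/FL libraries lay above all 6 other libraries of the day on days 2, 3 and 4. Ranked by log2 fold change among 15257 tested genes, Slamf9 was number 488, then 163 on the third day and 90 on the last.

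The widening difference in Slamf9 is made up of opposite courses. In 4-OHT-treated WT/FL cells Slamf9 was lower on day 4 than on day 1 by a log2 fold change of -2.11, whereas in 4-OHT-treated FL/FL cells it was higher by 1.80. Between day 2 and day 3 its level in FL/FL cells stayed similar (log2 fold change -0.06) while it was 2.67-fold lower on day 3 than on day 2 in WT/FL cells, so the larger difference on day 3 came from the lower level of the controls. Against untreated FL/FL cells of the same day in place of 4-OHT-treated WT/FL cells, the log2 difference was 2.83 on day 3 and 4.31 on day 4.

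Slamf7 kept the upward course of the controls and stood higher from day 2. On day 1 it had 6.23 and 6.15 CPM in 4-OHT-treated FL/FL and 6.36 and 6.34 CPM in 4-OHT-treated WT/FL libraries. On day 2 it had 125.8 and 130.9 CPM against 57.0 and 51.9 CPM, a 2.36-fold difference (log2 1.24). On day 3 it had 221.4 and 221.1 CPM against 97.0 and 110.9 CPM (2.13-fold, log2 1.09), and on day 4 238.4 and 254.3 CPM against 95.3 and 99.6 CPM (2.53-fold, log2 1.34). On each of these days both FL/FL libraries lay above all 6 others. Its rank by log2 fold change was 565, 681 and 700 of 15257.

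**Figure D3:**
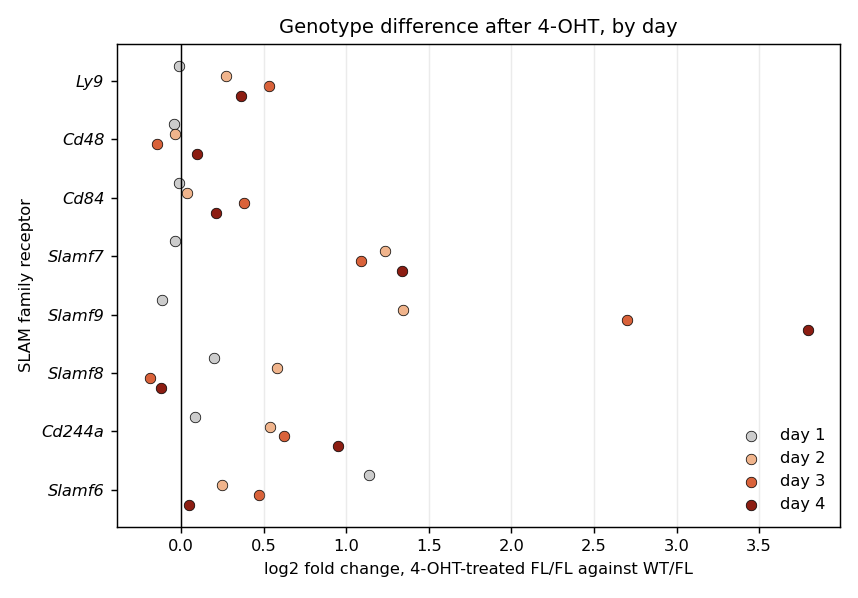
Log2 fold change of 4-OHT-treated FL/FL against WT/FL cells (x axis) for 8 receptors (y axis), with a point for each day and no test. Slamf9 moves from -0.11 on day 1 to 3.79 on day 4, Slamf7 stays between 1.09 and 1.34 from day 2 on, and Cd48 stays between -0.14 and 0.10.

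The other receptors differed less. Counted by libraries, 5 of 9 members had both 4-OHT-treated FL/FL values above both 4-OHT-treated WT/FL values on day 2, 5 on day 3 and 5 on day 4, where 25.2%, 28.0% and 27.9% of all tested genes did. These counts include Slamf9 and Slamf7, by which the family was chosen, and nothing is read from them. Ly9 had 699.8 and 675.9 CPM in FL/FL against 451.4 and 499.7 CPM in WT/FL cells on day 3 (log2 0.53) and 624.5 and 628.0 against 478.6 and 496.8 CPM on day 4 (log2 0.36). On both days its FL/FL values also lay above all untreated libraries. Cd84 had 469.2 and 474.0 CPM against 344.8 and 379.7 CPM on day 3 (log2 0.38) and 437.1 and 471.4 against 376.9 and 409.1 CPM on day 4 (log2 0.21). Cd84 and Ly9 are the homophilic receptors with the most reads here, and their differences were well below those of Slamf7.

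Both 4-OHT-treated FL/FL values of Cd244a lay above the 6 other libraries on days 3 and 4, while on days 1 and 2 they overlapped them. On day 4 it had 2.02 and 1.73 CPM (73 and 57 counts) in 4-OHT-treated FL/FL libraries, against 1.05 and 0.886 CPM (62 and 41 counts) in 4-OHT-treated WT/FL libraries and 0.813 to 1.22 CPM over all 6 other libraries (log2 0.95 between the genotypes after 4-OHT). Its ligand gene Cd48 had 149.4 and 147.2 CPM against 125.6 and 152.0 CPM on day 4, values that overlap (log2 0.10). On day 3 the FL/FL values of Cd48, 144.0 and 145.5 CPM, lay below those of the 6 other libraries, which ranged from 153.8 to 175.6 CPM.

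Slamf8 differed on day 2, when it had 10.8 and 12.0 CPM in 4-OHT-treated FL/FL against 6.12 and 9.07 CPM in WT/FL libraries (log2 0.58). On day 3 the values overlapped (15.8 and 14.9 against 15.7 and 19.3 CPM), and on day 4 they were 14.9 and 13.2 against 15.0 and 15.7 CPM (log2 -0.12). Whether the ISRE core match in the window of Slamf8 bears on this course was not tested. Slamf6 values overlapped between the genotypes on days 2, 3 and 4. Slamf1 had 5 and 7, 3 and 0, and 0 and 7 counts in 4-OHT-treated FL/FL libraries on these days and 9 and 10, 6 and 2, and 6 and 5 in WT/FL libraries, so that no difference was detectable at this depth. The macrophage markers summed to 12460 and 12539 CPM in 4-OHT-treated FL/FL and 12900 and 13798 CPM in WT/FL libraries on day 3, and to 12611 and 12627 against 12942 and 13132 CPM on day 4, with 6 of 6 detected, and their part in the receptor differences was not tested.

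The make-up of the family after 4-OHT is described without a test. Slamf9 and Slamf7, by which the family was chosen, enter the sum and every share. Nothing is therefore read from these differences about the family. Summed over the 9 receptors, the level per length was 456.1 ± 4.07 RPKM (SD, n = 2) in 4-OHT-treated FL/FL and 321.5 ± 20.7 RPKM in 4-OHT-treated WT/FL cells on day 4, and 123.6 ± 8.63 and 126.5 ± 2.63 RPKM on day 1. Slamf9 held 11.0% ± 1.82 of the sum in FL/FL and 1.13% ± 0.0119 in WT/FL cells on day 4. Slamf7 held 11.8% ± 0.643 and 6.62% ± 0.218. On day 1 Slamf9 held 11.7% ± 0.557 and 12.3% ± 0.223, so that its share in FL/FL cells on day 4 was near that of both genotypes on day 1. Between these days its share in FL/FL cells was lower, at 9.65% ± 0.528 on day 2 and 6.38% ± 0.158 on day 3. Per length, Cd84, Slamf7 and Slamf9 stood at 56.6 ± 3.02, 53.7 ± 2.45 and 50.2 ± 8.77 RPKM in 4-OHT-treated FL/FL cells on day 4, and the values of Slamf7 and Slamf9 did not differ beyond their spread. In WT/FL cells the same genes stood at 48.9 ± 2.84, 21.2 ± 0.671 and 3.63 ± 0.272 RPKM.

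**Figure D4:**
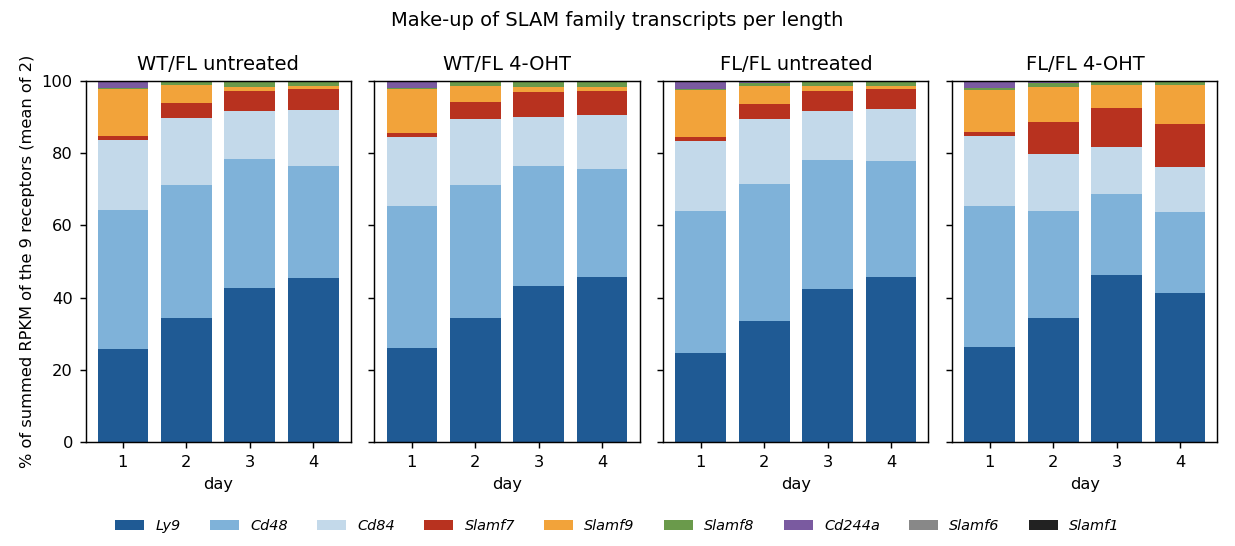
Share of each receptor (y axis, % of the summed RPKM of the 9 receptors, mean of 2 libraries) by day (x axis) in the 4 combinations of genotype and treatment. Slamf9 shrinks from 12.3% on day 1 to 1.13% on day 4 in 4-OHT-treated WT/FL cells. In 4-OHT-treated FL/FL cells it has 11.7%, 9.65%, 6.38% and 11.0% on days 1 to 4.

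Over the 16 group means, log2 CPM of Slamf7 correlated with Ly9 at r = 0.978 and with Cd84 at 0.976, but with Slamf9 at -0.138, and Slamf9 correlated with Slamf8 at -0.394 and with Cd244a at 0.673. These r values describe means that share libraries and the strong effect of time, and they carry no p. The genes most like Slamf9 by this measure were Cd300e (r = 0.976), a myeloid receptor, Igsf9 (0.974), a member of the immunoglobulin superfamily, and Plek (0.962), which encodes a protein kinase C substrate. Those most like Slamf7 were Fgl2 (0.996), Iqsec2 (0.993) and Ccrl2 (0.993). On day 4 they stood at 703.6, 84.8 and 20.0 CPM in 4-OHT-treated FL/FL and at 164.3, 71.8 and 9.18 CPM in 4-OHT-treated WT/FL cells. The closest genes were Ctsb for Ly9 (0.997), Paox for Cd48 (0.995), Atp8a1 for Slamf8 (0.993), Abcg1 for Cd84 (0.991) and Ap1s3 for Cd244a (0.99).

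Igsf9 is also the next gene on the plus strand after Slamf9, from 172309324 to 172326450, with 1434 bases between them. It had 8.11 and 8.6 CPM in 4-OHT-treated FL/FL and 0.793 and 1.51 CPM in WT/FL libraries on day 4, and 7.63 and 7.02 against 2.27 and 1.72 CPM on day 2. It passed the genotype test on both days (log2 fold change 2.87 ± 0.253 and 1.88 ± 0.241, adjusted p = 8.29e-10 and 1.77e-06, edgeR). Its likeness to Slamf9 was taken over groups that include these, and Slamf9 was chosen on this contrast. The calls of Igsf9 are therefore not independent of that choice, and nothing is read from them. Whether reads run on from Slamf9 into Igsf9 was not tested. Of the 56 other annotated genes in the interval that holds the family, 21 were tested, and on day 4 1 passed upwards (Igsf9) and 2 downwards, Kcnj10 (-2.27 ± 0.338, adjusted p = 6e-06) and Copa (-0.21 ± 0.0534, adjusted p = 0.0025). Of all tested genes 9.84% passed upwards and 11.7% downwards on that day. On day 2 Igsf9 and Ncstn passed upwards, and on day 3 Igsf9 upwards and Kcnj10 downwards. Kcnj10 kept its call on day 4 without each of the 4 libraries in turn, at -1.78 without replicate 1 and -2.99 without replicate 2 of FL/FL. The call of Copa on day 4 was lost without replicate 2 of WT/FL (adjusted p = 0.038), without replicate 1 of FL/FL (adjusted p = 0.0456) and with no filter on low counts (adjusted p = 0.0117).

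The genes through which SLAM receptors signal were compared between 4-OHT-treated FL/FL and WT/FL cells from lists of 33 genes, of which 32 were tested. Sh2d1a, the gene of the adaptor SAP, had 0 counts in every library. On day 1, 0 genes passed (edgeR and DESeq2, with 1 at an unadjusted p below 0.05), where 0.00655% of all tested genes passed upwards and 0.0131% downwards. On day 2, 5 passed upwards and 1 downwards, against 5.69% and 2.48% of all genes. On day 3, 5 passed upwards and 2 downwards, against 6.69% and 5.42%, and on day 4, 14 upwards and 5 downwards, against 9.84% and 11.7%. The median log2 fold change of the 32 genes on day 4 was 0.23 and that of all genes -0.04. The day 3 count of 7 fell to 1 without replicate 1 of FL/FL, to 2 without replicate 1 of WT/FL and to 3 without replicate 2 of FL/FL. DESeq2 passed 11 genes on day 2 and 11 on day 3.

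Among the adaptors, Sh2d1b1, which encodes EAT-2, the partner of SLAMF7, was higher on day 4 in FL/FL (4.37 and 4.12 CPM) than in WT/FL libraries (1.89 and 2.57 CPM, log2 fold change 0.94 ± 0.154, adjusted p = 2.52e-05, edgeR as for the genes that follow). On day 1 it had 7.9 and 7.23 CPM in FL/FL and 7.17 and 7.2 CPM in WT/FL libraries. It also passed on day 3 (0.65 ± 0.143, adjusted p = 0.00142), while Sh2d1b2 had at most 17 counts in a library. Of the 6 genes of Src family kinases and their regulator Csk, 3 passed upwards and 1 downwards on day 4. Lyn had 358.1 and 369.7 CPM against 222.7 and 235.3 CPM (0.67 ± 0.0613, adjusted p = 1.73e-09) and Fgr, a related kinase, differed by -0.41 ± 0.087 (adjusted p = 0.000585). Of the listed phosphatase genes, Ptprc (CD45) and Ptpn6 (SHP-1) passed upwards (0.44 ± 0.0571 and 0.39 ± 0.053, adjusted p = 6.34e-07 and 1.38e-06), and the other 2 of 4 did not pass.

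Of the downstream signalling genes, Vav1 passed upwards and Plcg1 downwards (0.22 ± 0.0463 and -0.52 ± 0.0927, adjusted p = 0.000546 and 6.59e-05), and the other 3 of 5 did not pass. SLAMF7 promotes phagocytosis together with the integrin Mac-1 and the adaptor chains FcRγ and DAP12. Their genes split on day 4, with Fcer1g and Tyrobp upwards (0.40 ± 0.0811 and 0.28 ± 0.0712, adjusted p = 0.000336 and 0.00355) and both integrin chains downwards, among them Itgam at 1006.0 and 1054.0 CPM in FL/FL against 1346.0 and 1284.7 CPM in WT/FL libraries (-0.35 ± 0.0668, adjusted p = 0.000149). Of 6 NADPH oxidase genes, 4 passed upwards and 1 downwards, led by Cyba (0.40 ± 0.0611, adjusted p = 9.31e-06), Ncf1 (0.28 ± 0.048, adjusted p = 4.5e-05) and Cybb (0.24 ± 0.0688, adjusted p = 0.00896). Of 4 genes of the Vps34 complex bound by SLAMF1, Uvrag passed (0.44 ± 0.0547, adjusted p = 3.03e-07). Cd2, the other receptor gene for CD48, had at most 27 counts in a library and did not pass.

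Some of these day 4 calls rested on 1 library. Without replicate 1 of WT/FL the adjusted p was 0.0286 for Fgr, 0.0126 for Tyrobp and 0.135 for Cybb. Without replicate 2 of WT/FL it was 0.0508 for Tyrobp and 0.011 for Cybb. Without replicate 1 of FL/FL it was 0.011 for Fcer1g and 0.164 for Tyrobp, and without replicate 2 of FL/FL it was 0.0228 for Fgr, 0.0117 for Vav1 and 0.132 for Cybb. The calls of Lyn, Ptprc, Ptpn6, Plcg1, Itgam, Cyba, Ncf1, Uvrag and Sh2d1b1 held without each of the 4 libraries in turn.

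**Figure D5:**
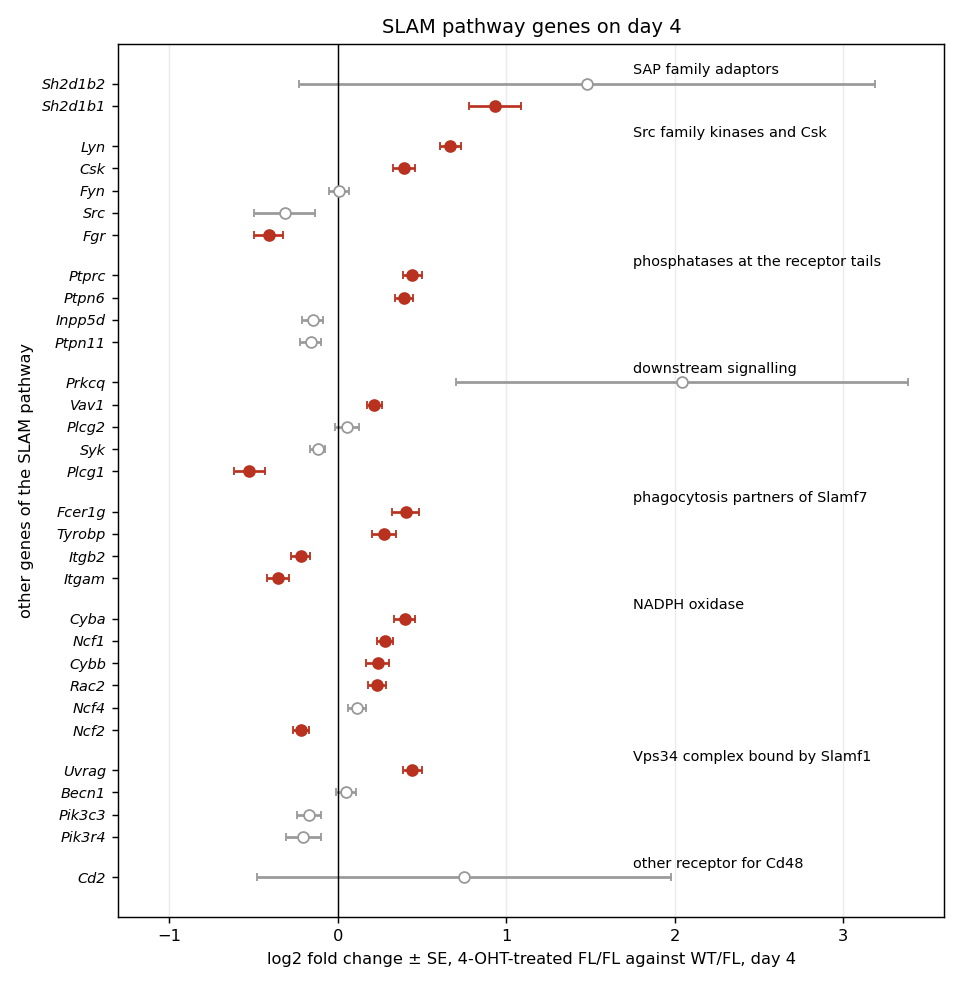
Log2 fold change ± SE (x axis) on day 4 between 4-OHT-treated FL/FL and WT/FL cells for 31 of the 32 other tested genes of the SLAM pathway (y axis), grouped by role. Filled points passed at an adjusted p below 0.01, 13 of them upwards and 5 downwards, and the lists of Src family kinases, integrin and adaptor chains and NADPH oxidase genes hold points on both sides of 0.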

How the data were processed

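RNA of BMDMs was sequenced on an Illumina instrument. The authors demultiplexed reads with JE, checked them with FastQC 11.9 (version from the submitters' processing notes), estimated transcript abundance with Salmon (reference GRCm39) and built gene tables with tximport. The deposited table holds whole-number estimated counts of genes, not normalized. Columns were mapped to groups through the labels, and 0 columns were left over. Of 54281 identifiers, 51048 matched GENCODE vM39, and the others held 0.32% of the counts.

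Counts were fitted with edgeR 4.0.16 in R 4.3.3 (TMM factors, filterByExpr with a minimum count of 10, robust glmQLFit, 1 mean per group, 16 residual degrees of freedom), which kept 15257 genes, and tested with glmQLFTest at an adjusted p of 0.01. The test of untreated day 2 against day 1 was checked on simulated counts. It recovered 90 of 100 genes changed by 1 log2 unit and 98 of 100 changed by 2, and called 2 of 14531 unchanged genes. Far fewer genes changed there than in the real step, and no genotype comparison was simulated. Libraries of a group differed by more than sampling noise (chi-square per degree of freedom 9.02 to 47.4). CPM use TMM-scaled totals, RPKM divide them by the union of annotated exons, and log2 CPM use a prior count of 2. The floor of 3 counts covers counting error only. Alternatives were RLE factors, DESeq2 1.42.0, no filter, other thresholds, other controls and leaving out each library.

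The members and lists were chosen with earlier results of these data known. All 9 members are named. From each pathway list and from the chromosome 1 interval, at most 3 passing genes with the largest absolute log2 fold change on day 4 are named, and the most alike genes by r (3 for Slamf9 and Slamf7, 1 for the others). Ncstn, Cd2, Sh2d1a, Sh2d1b2 and the cell markers were named after their values were seen. Values of some genes of these lists are not reported here, though they stay in the counts.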

Additional observations from a re-analysis of the deposited data

How the results depend on the processing

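The genotype differences of Slamf9 and Slamf7 after 4-OHT on days 2 to 4 kept their direction under all alternatives run. Against untreated FL/FL cells the log2 difference was 2.83 and 4.31 for Slamf9 on days 3 and 4, and 1.52, 1.39 and 1.57 for Slamf7 on days 2, 3 and 4. As an interaction with the untreated genotypes it was 2.54 and 3.44 for Slamf9 on days 3 and 4 and 1.33 for Slamf7 on day 2. Leaving out each library gave 3.6 to 3.96 for Slamf9 on day 4 and 1.00 to 1.19 for Slamf7 on day 3. With the study's added threshold of 1.5 on the log2 fold change, 2, 2 and 0 members passed on the 3 untreated steps in place of 7, 6 and 1, and 0 pathway genes on days 2, 3 and 4. At an adjusted p below 0.05, 3 members passed on the step to day 4 and 12 pathway genes on day 2 and 12 on day 3. Without the filter on low counts 3 members passed on the step to day 4, and DESeq2 passed 3 members there and 11 pathway genes on day 2 and 11 on day 3. Leaving out each library gave 1 to 2 members on the step to day 4 and 1 to 6 pathway genes on day 3. Values near 0 that had not passed changed sign. Slamf8 on the step to day 4 was -0.01 in the main fit, 0.01 with RLE factors and 0.01 with DESeq2, and -0.068 to 0.05 without a library. Leaving out libraries gave -0.024 to 0.072 for Slamf7 and -0.034 to 0.89 for Slamf1 on that step, -0.10 to 0.95 for Slamf6 on the step to day 2 and -0.11 to 0.01 for Cd84 on the step to day 3. The cause of these shifts was not tested. No paired analysis was possible because the labels give the libraries no replicate number, animal or batch. Their titles are serial numbers that run in blocks over the days, but no label says what a block marks, so libraries were not paired by them, and replicates 1 and 2 follow the order of accession and only name a library. With 2 libraries a group and at most 12 counts of Slamf1 per library, small differences of the low receptors could not be seen.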
